A study of Mus musculus with 9 samples.

Results

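The mitosis genes followed here are 42 genes of mitotic cyclins and kinases, the spindle, the kinetochore and cytokinesis. Every probe whose gene symbol was on the list was taken, without regard to its values. The list itself was chosen with earlier results of these data known. Of the 42 genes, 40 had at least 1 named probe, 78 probes in all, on a mouse expression BeadChip of 45281 probes whose named probes cover 19057 gene symbols. No probe was listed for Ccnb1 or Mki67. Of the 78 probes, 44 were above background on at least 2 of 6 arrays, and these measured 28 of the 42 genes.

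The arrays held total RNA from whole ovaries of C57BL/6 mice in 3 groups. WT ovaries came from wild-type mice and POF ovaries from a model of premature ovarian failure. The group named SSCTR received a transplant of spermatogonial stem cells, the germline stem cells of the testis. The labels do not say how ovarian failure was brought about, how old the animals were, or whether recipients had ovarian failure before they received cells. They number 3 replicates per group, but the deposited replicate 1 of each group was computed from the other pair: it equals their mean multiplied by one of 6 factors in WT, 17 in SSCTR and 9 in POF. All values therefore come from replicates 2 and 3, n = 2 arrays per group. Nothing says that these came from separate animals, so the p-values measure the spread between these arrays, which may be technical.

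In mitosis a cell condenses its replicated chromosomes, attaches the sisters to opposite poles of a spindle and then divides. Entry is driven by the kinase Cdk1 with its cyclin partners, and the Polo and Aurora kinases order the steps that follow. The checkpoint proteins hold back the anaphase-promoting complex until every kinetochore is attached, after which motors and bundling proteins separate the chromosomes and divide the cell. In the ovary the granulosa cells of growing follicles divide rapidly, and oocytes, which do not divide by mitosis, also store RNA for many of the same proteins for use in meiosis and after fertilization.

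Many genes of this kind carry a cell cycle genes homology region (CHR) near their start, the site through which the DREAM and B-Myb/Foxm1 complexes act on them, often with CCAAT boxes, the element of NF-Y. The RefSeq promoter window (GRCm38.p6, 250 bases before to 50 after the start) was found for 36 of the 42 genes. Searched on both strands for TTTGAA or TTTAAA, the common CHR letters, 30 of these 36 genes held a match (83.3%), while 30.6% of 27025 genes did. CCAAT was found in 26 of the 36 (72.2%, against 41.1% of all genes), and CHR letters together with CCAAT in 24 (66.7%, against 12.2%). The search overlooks the spacing and flanks of a true site, so a match is a description of letters. Matches overlapped one another in 2 of the 40 windows searched.

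The windows of 4 genes that were lower in POF, and of Aurka, which was not, show how these letters lie. Each is printed in the direction of its gene, 5′ to 3′, with the CHR letters (also as TTCAAA on the other strand) and CCAAT (also as ATTGG) in capitals. Cdk1 lies at chr10:69352863-69353162 on the minus strand, Plk1 at chr7:122159185-122159484 on the plus strand and Kif11 at chr19:37376132-37376431 on the plus strand. Top2a lies at chr11:99024140-99024439 and Aurka at chr2:172370521-172370820, both on the minus strand.
Cdk1: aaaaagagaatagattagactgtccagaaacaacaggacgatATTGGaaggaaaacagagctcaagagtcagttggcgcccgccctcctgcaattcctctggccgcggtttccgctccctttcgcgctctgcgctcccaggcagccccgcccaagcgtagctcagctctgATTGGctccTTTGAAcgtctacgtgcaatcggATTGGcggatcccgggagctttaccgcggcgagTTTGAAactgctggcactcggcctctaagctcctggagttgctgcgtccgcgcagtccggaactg
Plk1: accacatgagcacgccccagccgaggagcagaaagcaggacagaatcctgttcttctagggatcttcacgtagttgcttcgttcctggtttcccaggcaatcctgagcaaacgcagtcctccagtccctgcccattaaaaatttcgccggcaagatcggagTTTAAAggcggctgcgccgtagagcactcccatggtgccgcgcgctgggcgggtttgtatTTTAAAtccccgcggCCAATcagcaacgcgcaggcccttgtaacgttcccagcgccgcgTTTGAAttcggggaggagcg
Kif11: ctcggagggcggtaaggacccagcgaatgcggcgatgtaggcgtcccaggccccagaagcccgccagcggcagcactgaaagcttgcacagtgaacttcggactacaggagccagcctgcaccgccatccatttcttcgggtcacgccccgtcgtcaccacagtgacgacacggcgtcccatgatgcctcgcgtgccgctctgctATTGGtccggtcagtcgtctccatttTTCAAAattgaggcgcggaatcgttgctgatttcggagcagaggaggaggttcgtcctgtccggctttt
Top2a: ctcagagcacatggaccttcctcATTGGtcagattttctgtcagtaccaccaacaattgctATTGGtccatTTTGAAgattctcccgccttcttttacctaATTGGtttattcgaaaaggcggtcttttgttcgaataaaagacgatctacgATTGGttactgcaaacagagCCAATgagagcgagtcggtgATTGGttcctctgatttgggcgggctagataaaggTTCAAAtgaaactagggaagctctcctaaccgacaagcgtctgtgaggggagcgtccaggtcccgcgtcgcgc
Aurka: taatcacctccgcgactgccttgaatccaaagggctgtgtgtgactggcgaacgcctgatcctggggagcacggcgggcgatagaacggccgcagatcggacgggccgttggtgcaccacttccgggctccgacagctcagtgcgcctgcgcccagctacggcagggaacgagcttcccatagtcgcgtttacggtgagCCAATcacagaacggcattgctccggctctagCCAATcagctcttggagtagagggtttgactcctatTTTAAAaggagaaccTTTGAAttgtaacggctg
With the start at 0, the CHR letters nearest to it began at -15 in Cdk1, -19 in Kif11 and -23 in Top2a, each with CCAAT letters further upstream. In Plk1 the only CCAAT letters lay downstream of the CHR letters nearest to the start. Aurka held the same kinds of letters as the other 4 windows, but its CHR letters lay after the start. Of the 15 genes with a window that were lower in POF, 13 held CHR letters, and of the 10 other measured genes with a window 8 did. These 8 are no set of unmoved genes, since Cdc20, Bub1b, Kif23 and Cdca8 each have another probe that fell in POF. CCAAT letters were in 9 of the 15 lower genes and in 7 of the 10 others. Both kinds together were in 9 of the 15 and 6 of the 10. The 4 printed windows of lower genes all hold both kinds, so they do not stand for all 15.

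Between 17752 and 18041 probes per array were above background in WT and POF, and 16040 to 16546 in SSCTR. A probe counted as above background where its deposited detection p-value was under 0.05. Intensities were background-corrected, quantile-normalized and put on the log2 scale, on which all levels below are given. Levels of different probes are not comparable. Where a gene had several probes above background, the brightest stands for it. Differences were tested with limma across 13872 features in 1 model of the 3 groups. The threshold was a Benjamini-Hochberg adjusted p under 0.05, and adjusted p-values below come from that fit unless another is named. In these bulk samples, fewer cells of a type and less RNA per cell cannot be told apart.

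The first comparison asks how the ovarian failure model differed from wild type. Most of the measured mitosis genes were lower in POF: 17 of 28 fell and 1, Cdca8, rose. That is 64.3% of the measured members past the threshold, where 11.9% of all features passed (6.98% higher, 4.96% lower). The 28 had a median log2 difference of -0.81, with a range from -1.35 to 1.19, while the median of all features was -0.03. The falls included genes of every step: mitotic entry (Cdk1, Plk1), the passenger complex (Aurkb), the kinetochore (Spc25), the spindle (Kif11), the midzone (Prc1) and chromosome structure (Top2a). Most were modest in size: 6 of the 17 falls were of 2-fold or more.

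The median level of the 28 genes was 8.13 and 8.23 in WT, 8.25 and 8.23 in SSCTR, and 7.67 and 7.73 in POF. The POF arrays were thus the lowest of the 6. A gene could enter through the group where it was high, so the count was also taken over the 24 genes above background on all 6 arrays. Of these, 15 fell in POF and 1 rose, with a median of -0.84. The share of all features under that filter was not taken. With the stricter filter of detection p under 0.01 on all arrays, 15 of 22 members passed (68.2%, where 16.8% of all features did). In 21 of the 28 genes both POF arrays lay below both WT arrays, where 29.3% of all features did, and in 3 above them, where 25.6% did.

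**Figure D1:**
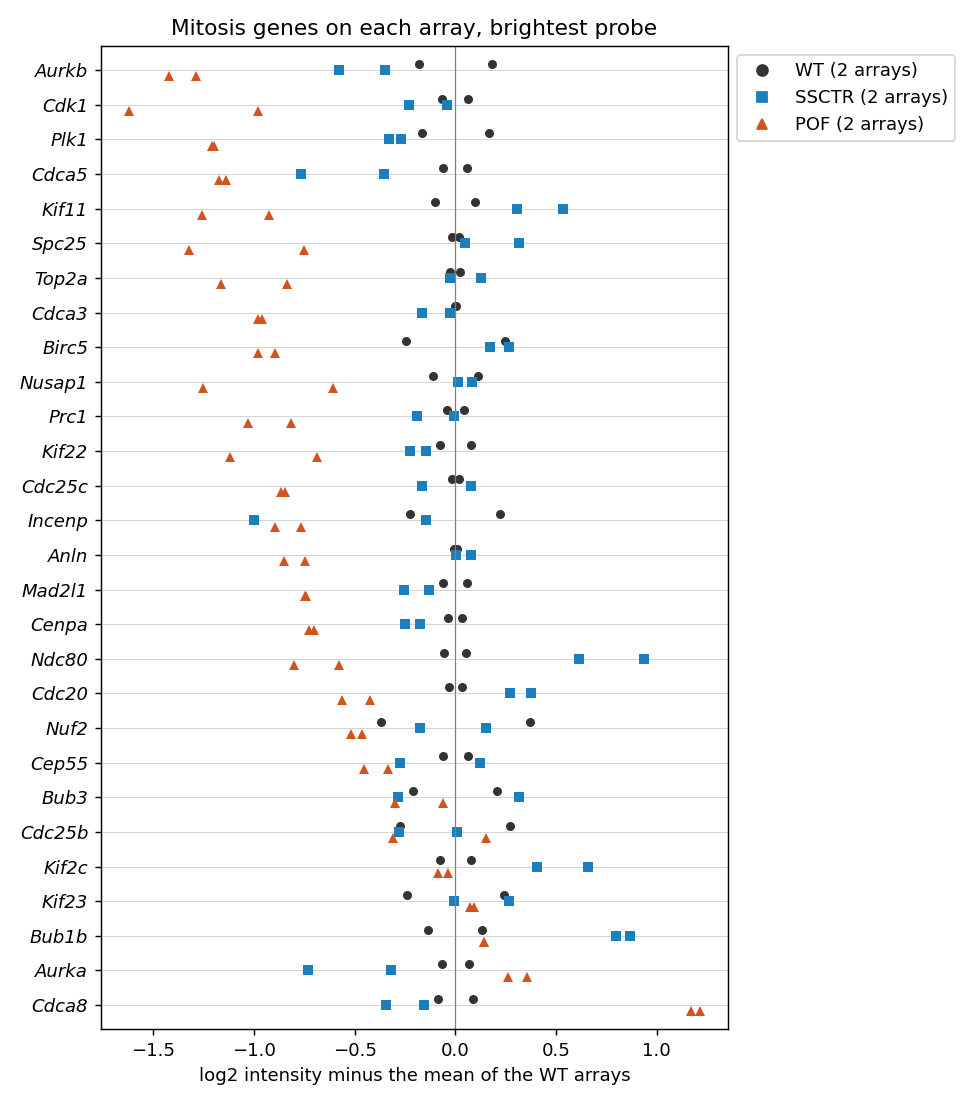
Log2 intensity of each of the 28 measured mitosis genes on each of the 6 arrays, minus the mean of that gene's WT arrays; circles are WT, squares SSCTR and triangles POF, and genes are ordered by POF against WT. The triangles lie left of the circles in 21 of the 28 genes, and right of them in 3, Cdca8 farthest.

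Markers of several cell types moved with this comparison. Of 15 measured oocyte markers (16 listed), 11 fell in POF with a median of -1.29, and their summed level on the log2 scale was 13.67 on both WT arrays, 13.45 to 13.51 in SSCTR and 12.60 to 12.66 in POF. Of 11 measured granulosa markers (14 listed, with Amh, Inhbb and Cyp19a1 not measured), 4 fell with a median of -0.48. The summed level was 14.71 to 14.80 in WT, 14.70 to 14.79 in SSCTR and 14.54 to 14.59 in POF. A sum leans on its brightest probe, here Inha (13.64 and 13.76 in WT, 13.69 and 13.79 in POF). The mean log2 level of the 11 was 10.36 and 10.42 in WT, 10.67 and 10.56 in SSCTR, and 9.73 and 9.70 in POF. In the other direction, 7 of 13 measured macrophage markers rose in POF. Their summed level was 12.37 to 12.49 in WT, 12.12 to 12.31 in SSCTR and 13.67 to 13.98 in POF. So did 6 of 9 measured epithelial markers (9.58 to 9.61 in WT, 9.38 to 9.45 in SSCTR and 12.13 to 12.14 in POF). The epithelial sum in POF leans on Ovgp1 (4.94 and 4.44 in WT, 11.34 and 11.16 in POF). The epithelial markers Cdh1 and Epcam were lower on both POF arrays than on either WT array, without passing. Cdh1 stood at 7.01 and 6.99 in WT, and at 6.61 and 6.33 in POF. Of the other lists, 2 of 7 luteal markers fell, and of 4 measured lymphocyte markers 1 rose and 1 fell. Of 10 listed testis germ cell markers only Dazl and Zbtb16, which ovaries can also express, were measured, and Dazl fell. The part of these cell types in the result was not tested.

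Among the genes that control Cdk1, 3 of 4 measured members fell in POF and none rose. Cdk1, the kinase that drives entry into mitosis, had a level of 9.51 and 9.38 in WT, 9.21 and 9.40 in SSCTR, and 7.83 and 8.47 in POF. Both POF arrays were below every other array. The log2 difference of POF from WT was -1.30 (SE 0.23, 2.46-fold lower, adjusted p = 0.00798). Cdc25c, a phosphatase that activates Cdk1, fell by 0.86 (adjusted p = 0.0136), and Cdca3, a trigger of mitotic entry, fell by 0.97 (adjusted p = 0.00656). Cdc25b, the related phosphatase, differed by -0.08 and did not pass. The cyclins themselves could not be followed: Ccna2 and Ccnb2 had no probe above background on any array, and Ccnb1 had no listed probe.

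Of the entry kinases, Plk1, the Polo kinase of spindle assembly and cytokinesis, fell while Aurka did not. Plk1 stood at 8.95 and 9.28 in WT, 8.85 and 8.79 in SSCTR, and 7.91 and 7.92 in POF, with no overlap between POF and either other group. Its difference of POF from WT was -1.20 (SE 0.18, 2.30-fold lower, adjusted p = 0.00376). Aurka, the kinase of centrosome maturation and spindle poles, stood at 8.32 and 8.45 in WT, 8.07 and 7.65 in SSCTR, and 8.65 and 8.74 in POF. It was highest on the POF arrays, by 0.31 over WT, which did not pass (SE 0.19, adjusted p = 0.348). The probes of Tpx2, which activates Aurora A on spindle microtubules, did not enter.

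The chromosomal passenger complex, which corrects wrong attachments, joins the kinase Aurkb to Incenp, Birc5 (survivin) and Cdca8 (borealin). Its members gave both the largest fall and the only rise of the comparison. Aurkb stood at 7.59 and 7.22 in WT, 6.83 and 7.06 in SSCTR, and 6.12 and 5.99 in POF. The 3 groups did not overlap, with SSCTR between the others, and POF was lower than WT by 1.35 (log2 difference -1.35, SE 0.19, 2.56-fold, adjusted p = 0.00306). Birc5 stood at 9.30 and 9.79 in WT, 9.72 and 9.81 in SSCTR, and 8.65 and 8.57 in POF, and fell by 0.94 (SE 0.20, adjusted p = 0.0188). Its other probes fell by 0.85 and 1.14. Incenp differed by -0.83 and did not pass (adjusted p = 0.0971).

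Cdca8 had probes that moved in opposite directions. The brightest stood at 9.16 and 8.99 in WT, 8.73 and 8.92 in SSCTR, and 10.25 and 10.29 in POF, and its difference of POF from WT was 1.19 (SE 0.17, 2.28-fold higher, adjusted p = 0.00318). The other stood at 7.89 and 8.08 in WT, 8.12 and 7.72 in SSCTR, and 6.84 and 6.87 in POF, a fall by 1.14 (adjusted p = 0.00819 over all 19394 probes above background). On both probes POF stood apart from the other groups, above them on the first and below them on the second. The platform annotation ties both probes to the same transcript record, so the data give no single direction for Cdca8. With the mean of both probes in place of the brightest, the difference did not pass (adjusted p = 0.938).

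In the spindle checkpoint, 1 of 3 measured genes fell in POF. Mad2l1, which captures Cdc20 at unattached kinetochores, fell by 0.75 (adjusted p = 0.0212), while its partner Bub3 differed by -0.18 and did not pass. Bub1b (BubR1) again had probes that differed. The brightest stood at 7.70 and 7.43 in WT, 8.36 and 8.43 in SSCTR, and 7.71 and 7.71 in POF, so POF lay just above WT (0.14, adjusted p = 0.657) and SSCTR above both. The other probe stood at 6.48 and 6.55 in WT, 6.41 and 6.41 in SSCTR, and 5.61 and 5.80 in POF, a fall by 0.81 (adjusted p = 0.0216 over all probes). Both probes have the same transcript record. No probe of Bub1 or of Ttk (Mps1), the checkpoint kinases, was above background on any array.

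Among the genes of anaphase onset and cohesion, Cdca5 (sororin), which protects cohesion between sisters, stood at 5.84 and 5.95 in WT, 5.54 and 5.13 in SSCTR, and 4.72 and 4.75 in POF. Its difference of POF from WT was -1.16 (SE 0.19, 2.23-fold lower, adjusted p = 0.0059), with only 1 of the 2 POF arrays above background. The 3 groups did not overlap. Cdc20, the activator of the anaphase-promoting complex, stood at 8.97 and 9.03 in WT, 9.27 and 9.38 in SSCTR, and 8.44 and 8.58 in POF. POF was the lowest group, but on this probe the difference of -0.49 did not pass (adjusted p = 0.0935). Its other 3 probes did, with differences of -0.89, -0.80 and -0.89. Pttg1 (securin) and Ube2c, the ubiquitin-conjugating enzyme of the complex, had no probe that entered.

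At the centromere and kinetochore, 3 of 4 measured genes fell. Cenpa, the histone that marks centromeres, stood at 11.07 and 11.14 in WT, 10.85 and 10.93 in SSCTR, and 10.40 and 10.38 in POF. The groups did not overlap, and POF lay 0.71 below WT (log2 difference -0.71, SE 0.16, adjusted p = 0.0233). Of the Ndc80 complex, which binds microtubule ends, Spc25 stood at 6.23 and 6.19 in WT, 6.53 and 6.26 in SSCTR, and 5.46 and 4.89 in POF, a fall by 1.04 (SE 0.22, adjusted p = 0.0183). Ndc80 stood at 5.52 and 5.41 in WT, 6.40 and 6.08 in SSCTR, and 4.67 and 4.89 in POF, with 1 POF array above background, and fell by 0.69 (SE 0.19, adjusted p = 0.0472). That call sits at the threshold and was lost under 11 of 16 alternatives, with adjusted p-values up to 0.2, among them the fit of all probes (0.0591). Both genes were lowest on the POF arrays. Nuf2, of the same complex, was above background on 1 of 2 WT arrays and on neither POF array, so no fold change is given. Its fitted difference of -0.49 (SE 0.25) did not pass (adjusted p = 0.257). The probes of Cenpe, a kinetochore motor, and Cenpf did not enter.

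Of the spindle motors and microtubule-binding proteins, 3 of 4 fell. Kif11, the kinesin that pushes the spindle poles apart, stood at 7.04 and 7.24 in WT, 7.67 and 7.45 in SSCTR, and 5.89 and 6.22 in POF. The groups did not overlap, SSCTR being highest and POF lowest, and POF was below WT by 1.09 (log2 difference -1.09, SE 0.19, 2.13-fold, adjusted p = 0.00816). Kif22, a motor on chromosome arms, fell by 0.90 (adjusted p = 0.0193) and Nusap1, which bundles spindle microtubules, by 0.93 (adjusted p = 0.0327). Kif2c, which depolymerizes microtubules at centromeres, differed by -0.06 and did not pass.

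In cytokinesis, Prc1 and Anln fell. Prc1, which bundles the antiparallel microtubules of the midzone, stood at 11.02 and 11.10 in WT, 11.05 and 10.87 in SSCTR, and 10.24 and 10.03 in POF. POF did not overlap the others, and the fall was by 0.92 (SE 0.17, adjusted p = 0.0109). Anln (anillin), a scaffold of the cleavage furrow, fell by 0.80 (adjusted p = 0.0153). Cep55, needed for abscission, was above background on neither POF array and 1 of 2 WT arrays, so no fold change is given. Its fitted difference of -0.39 (SE 0.19) did not pass (adjusted p = 0.23). Kif23, the motor of the midzone complex centralspindlin, stood on its brightest probe at 9.60 and 10.08 in WT, 9.84 and 10.11 in SSCTR, and 9.93 and 9.92 in POF, and the groups overlapped (0.08, adjusted p = 0.848). Its other probes fell by 0.86 (adjusted p = 0.0231) and 0.88 (adjusted p = 0.033), and the annotation gives 2 transcript records for its 3 probes. Its partner Racgap1, and Ect2 and Kif20a, had no probe above background.

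Top2a, the topoisomerase that untangles sister chromosomes, stood at 8.85 and 8.90 in WT, 8.84 and 8.999 in SSCTR, and 7.71 and 8.04 in POF. WT and SSCTR overlapped and POF lay below both, with a difference from WT of -0.999 (SE 0.18, adjusted p = 0.00927). Its other probe gave -0.72 and did not pass (adjusted p = 0.173 over all probes). The proliferation marker Mki67 could not be read.

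Several members thus rested on which probe was read. Over all 44 probes above background, in a fit of 19394 probes of which 9.52% passed, 26 fell and 1 rose in POF, with a median of -0.82. Of the 12 genes with several such probes, 8 had the same sign on all of them, and Bub1b, Cdca8, Cdk1 and Kif23 did not. Of the genes with 1 sign, the second probes of Cdca3 (-0.82), Cenpa (-0.10), Mad2l1 (-0.32) and Spc25 (-0.49) did not pass, like that of Top2a. The second Cdk1 probe was above background only in POF, where it stood at 5.02 and 4.82, and did not pass (adjusted p = 0.128).

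**Figure D2:**
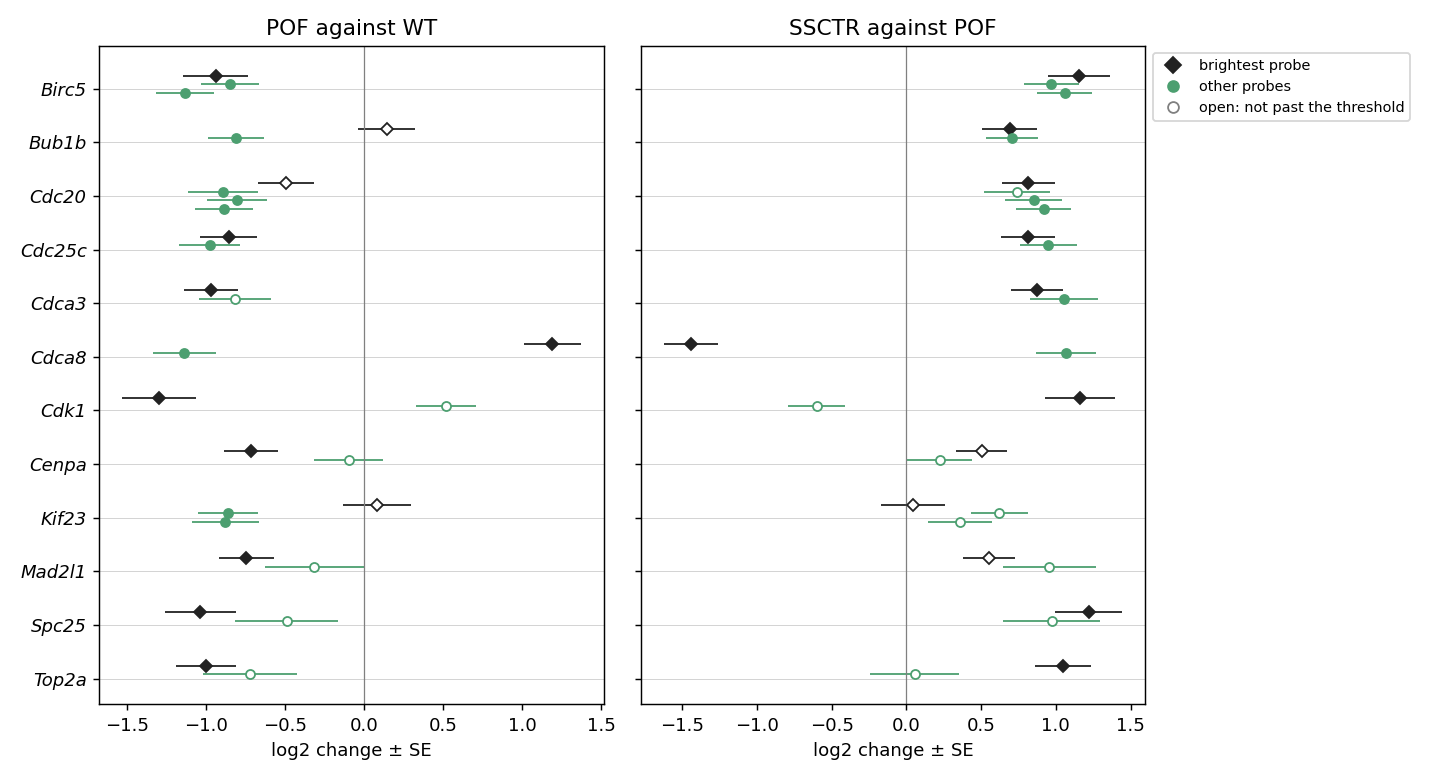
Log2 change ± SE of every probe above background for the 12 genes with several, for POF against WT and SSCTR against POF; diamonds are the brightest probe, circles the others, and filled symbols passed the threshold over all 19394 probes. The Cdca8 probes stand on opposite sides of 0, at 1.19 and -1.14 in POF against WT.

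The count fell when a WT or POF array was left out: without WT replicate 2, 7 of 27 measured members passed (25.9%, where 5.2% of all features did), and without WT replicate 3, 6 of 27 (22.2%, against 6.07%). Without either POF replicate 9 of 28 passed (32.1%, against 5.64% without replicate 2 and 4.58% without replicate 3). Without background correction the median was -0.49, and it was -0.49 with the authors' normalized table too.

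The second comparison asks how the recipients' ovaries differed from the failure model. Most measured mitosis genes rose in the recipients over the failure model: 16 of 28 did, and Cdca8 and Aurka fell, so 64.3% passed, against 12.6% of all features (5.33% higher, 7.25% lower). The median log2 difference was 0.76, with a range from -1.44 to 1.51, where all features had 0.03. Of the 16 rises, 6 were of 2-fold or more. This comparison shares its POF arrays with the first, so each gene is given with its own value in this comparison only. Over the 24 genes above background on all arrays, 15 rose and 2 fell, with a median of 0.81. The share of all features under that filter was not taken. With detection p under 0.01 on all arrays, 19 of 22 members passed (86.4%, where 16.2% of all features did). In 22 of the 28 genes both SSCTR arrays lay above both POF arrays, where 28.8% of all features did, and in 2 below them, where 26.6% did.

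The largest rise was that of Kif11, whose level on every array is given above: 1.51 on the log2 scale (SE 0.19, 2.85-fold, adjusted p = 0.00146). Ndc80 followed at 1.46 (SE 0.19, 2.76-fold, adjusted p = 0.00147), Spc25 at 1.22 (SE 0.22, 2.33-fold, adjusted p = 0.00815), and then Cdk1 on its brightest probe at 1.16 (SE 0.23, 2.24-fold, adjusted p = 0.0118) and Birc5 at 1.16 (SE 0.20, 2.23-fold, adjusted p = 0.00665). On these probes of the 5 genes both SSCTR arrays were above both POF arrays. The second Cdk1 probe had the opposite sign, -0.60, and did not pass (adjusted p = 0.0824 over all probes), and that of Spc25 gave 0.97 without passing (adjusted p = 0.0996). The first 3 of them act at the spindle and the kinetochore.

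Top2a rose by 1.05 on its brightest probe (adjusted p = 0.00662), while its other probe differed by 0.06 (adjusted p = 0.931 over all probes). Plk1 rose by 0.90 (adjusted p = 0.0126), Aurkb by 0.89 (adjusted p = 0.0177) and Prc1 by 0.82 (adjusted p = 0.0161). Cdc20 rose by 0.82 (SE 0.17, adjusted p = 0.0135), and on its other probes by 0.85 and 0.92, with 1 more at 0.74 that did not pass. Bub1b rose by 0.69 on its brightest probe (adjusted p = 0.0331) and by 0.71 on the other (adjusted p = 0.035 over all probes). Cdca3, Anln, Cdc25c, Nusap1 and Kif22 also rose, by 0.72 to 0.98, and the Kif22 call was lost under 8 of 17 alternatives. By role, 3 of 4 genes of Cdk1 control, 3 of 4 spindle proteins, 2 of 4 of the passenger complex, 2 of 4 of the kinetochore, 2 of 4 of cytokinesis and 1 of 3 of the checkpoint rose.

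Against this direction, Aurka was lower in SSCTR than in POF by 0.84 (log2 difference -0.84, SE 0.19, 1.79-fold, adjusted p = 0.0233), and its groups did not overlap. The brightest Cdca8 probe fell by 1.44 (SE 0.17, 2.71-fold, adjusted p = 0.00104), and its other probe rose by 1.07 (adjusted p = 0.00999 over all probes). With the mean over probes Cdca8 did not pass (adjusted p = 0.479). Kif2c (0.59), Mad2l1 (0.55), Cdca5 (0.60) and Cenpa (0.50) were higher without passing, at adjusted p-values from 0.0609 to 0.08, and Kif23 differed by 0.05. The other Kif23 probes gave 0.62 (adjusted p = 0.0743 over all probes) and 0.36, neither past the threshold.

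Of the marker lists, 13 of 15 oocyte markers and 7 of 11 granulosa markers rose in SSCTR over POF, with medians of 0.96 and 0.87, while 9 of 13 macrophage and 6 of 9 epithelial markers fell, with medians of -1.11 and -2.68. Against the direction of its list 1 epithelial marker, Cdh1, rose. Of the other lists, 2 of 4 lymphocyte markers fell, and 2 of 7 luteal markers and Dazl rose. The part of these lists in the rise of the mitosis genes was not tested. Over all 44 probes, 23 rose and 2 fell, with a median of 0.81, where 10.1% of all probes passed. Without SSCTR replicate 2, 9 of 28 members passed (32.1%, where 7.47% of all features did), and without SSCTR replicate 3, 9 of 26 (34.6%, against 6.69%). Without POF replicate 2, 8 of 28 passed (28.6%, against 6.48%), and without POF replicate 3, 6 of 28 (21.4%, against 5.54%). With the mean over probes, 16 of 28 passed (57.1%, against 12.4%), and the Cdk1 call was lost under 3 of 17 alternatives. The median was 0.49 both without background correction and with the authors' normalized table.

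**Figure D3:**
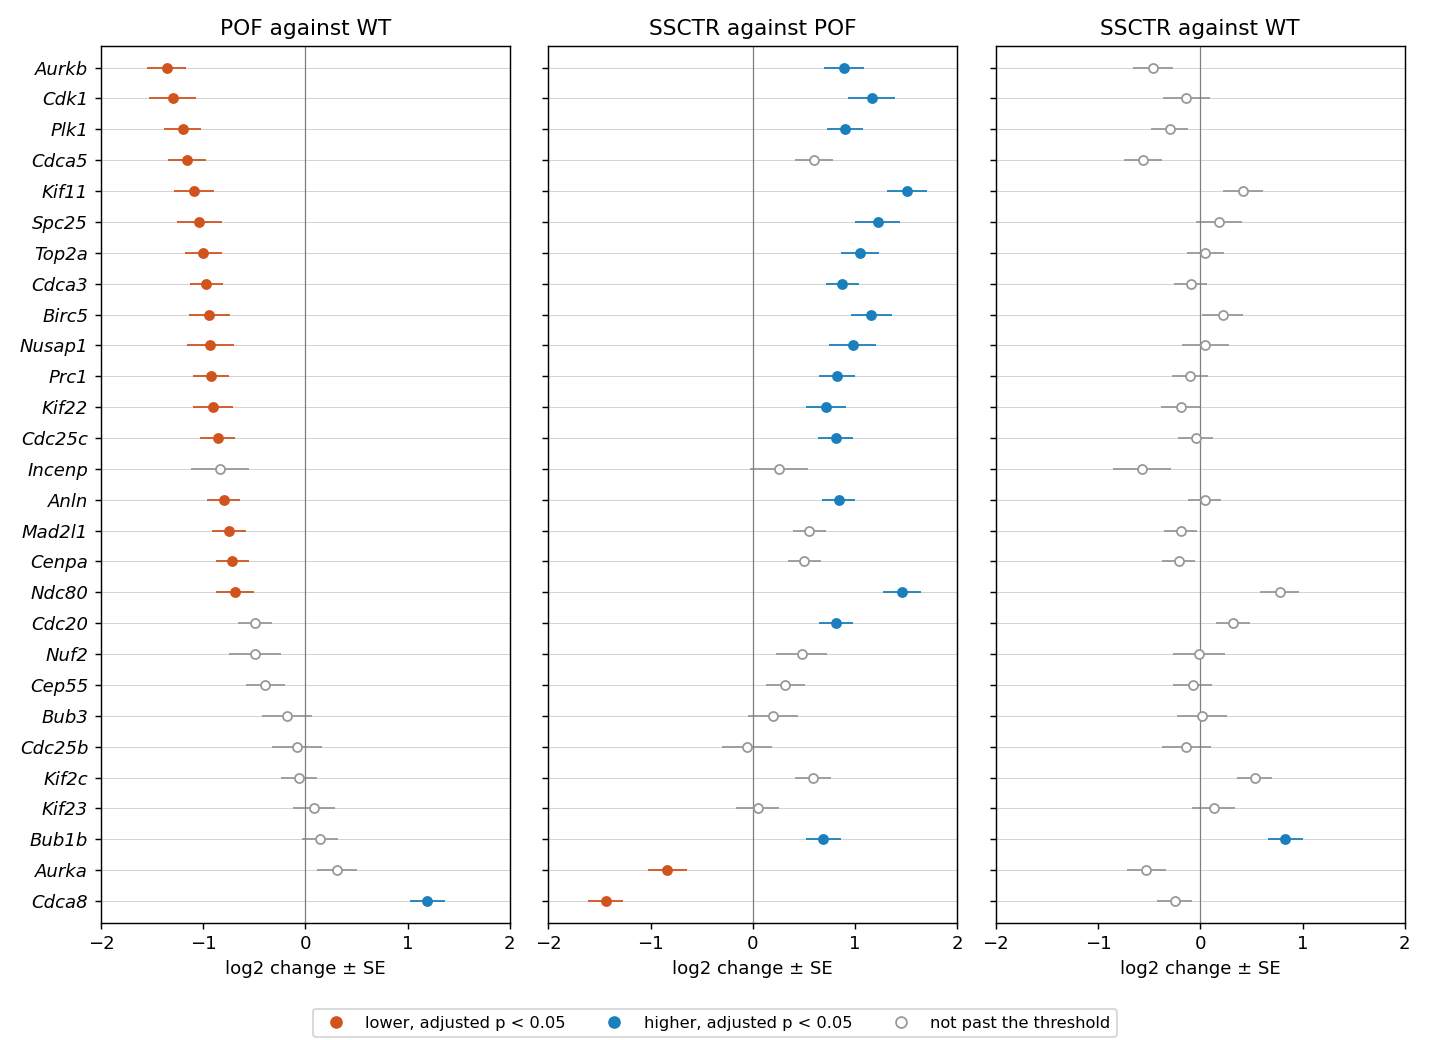
Log2 change ± SE of the 28 measured mitosis genes in the 3 comparisons, ordered by the change in POF against WT; filled symbols passed an adjusted p of 0.05, red lower and blue higher, and Nuf2 and Cep55, not above background in POF, are drawn at their fitted values. The first panel lies mostly left of 0, the second mostly right of it, and the third around it, with Bub1b alone filled.

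The third comparison sets the recipients' ovaries against wild type. The 28 genes centred near 0, with a median log2 difference of -0.06 where all features had -0.01. Only Bub1b passed, 3.57% of the 28 where 3.31% of all features did (1.81% higher, 1.5% lower). The brightest Bub1b probe was higher in SSCTR by 0.83 (95% interval 0.44 to 1.23, adjusted p = 0.0397), and its other probe differed by -0.10 (adjusted p = 0.837 over all probes). No member was lower by the limma fit, and at an unadjusted p under 0.05 there were 3 higher and 3 lower. The share of all features at that unadjusted cut was not taken. Counts at it, here and below, therefore cannot be set against a background. Over all 44 probes none passed in the limma fit of every probe, where 2.44% of probes did, and 3 were higher and 4 lower at an unadjusted p under 0.05. Of the marker lists, 2 of 11 granulosa markers and 2 of 7 luteal markers were higher in SSCTR than in WT, 1 of 15 oocyte and 1 of 4 lymphocyte markers were lower, and of 13 macrophage markers 1 was higher and 1 lower. Their medians were 0.38, 0.02, -0.37, -0.70 and -0.18 in that order. At an unadjusted p under 0.05, 7 of the 15 oocyte markers were lower and none higher.

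A p above the threshold does not show equal levels, so the intervals matter here. On the brightest probes the 95% interval lay within 1 of 0 on the log2 scale for 25 of the 28 genes. The other 3 were Bub1b, Ndc80 (0.78, 0.35 to 1.20, adjusted p = 0.0656) and Incenp (-0.57, -1.22 to 0.07). In the fit of all probes, second probes of Mad2l1 (-0.07 to 1.35), Spc25 (-0.25 to 1.22) and Top2a (-1.33 to 0.01) also reached past 1, and the interval of Cdca5 reached it. Cdk1 differed by -0.14 (adjusted p = 0.83) and Top2a by 0.05, or -0.66 on its other probe (adjusted p = 0.31 over all probes). Kif2c was higher by 0.53, Kif11 by 0.42, Cdca5 lower by 0.56 (log2 difference -0.56), Aurka by 0.53 (-0.53) and Aurkb by 0.46 (-0.46), none past the threshold. The Bub1b call did not remain when any of the 4 WT or SSCTR arrays was left out, or either POF array, which lends its spread to the fit: each gave 0 calls, with 4 to 5 members at an unadjusted p under 0.05.

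Other genes of the cell cycle were read in the same way from lists that hold none of the 42. In POF against WT, 10 of 18 measured DNA replication genes fell and none rose, with a median of -0.76. Mcm10, which helps load the replication machinery, fell by 1.50, Mcm5 and Mcm2 of the replicative helicase by 1.33 and 1.18, and Gins1 of the same helicase by 1.04. In SSCTR against POF, 7 of 18 rose, with a median of 0.56, led by Mcm10 at 1.46. Against WT none of the 18 passed in SSCTR by limma, with 1 lower at an unadjusted p under 0.05 and a median of -0.28.

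Of 17 measured genes of mitotic entry, its transcription factors and further kinases, 10 fell in POF (median -0.78). They were led by Aurkc, the Aurora kinase best known from meiosis, and E2f1, a transcription factor of S-phase entry, each at -1.07, and by Cdca2 and Cks2, a Cdk1-binding subunit, each at -1.05. Foxm1, a transcription factor that acts at CHR sites, fell too (adjusted p = 0.0101). It was named after its value was seen, and its part in the other falls was not tested. In SSCTR against POF 5 rose, with a median of 0.41. Against WT none passed by limma, with 1 higher and 4 lower at an unadjusted p under 0.05.

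The remaining kinetochore and centromere genes gave 4 falls of 16 in POF (median -0.34) and 7 rises in SSCTR against POF (median 0.60). Cenpm, of the inner kinetochore, fell by 1.83, and Sgo1 (shugoshin), which guards centromeric cohesion and was also on the condensin and cohesin list, by 1.79. In SSCTR against WT 2 were higher, Cenpp by 0.97 and Spc24, the partner of Spc25, by 0.87. Of 16 further spindle and cytokinesis genes, 4 fell in POF and 5 rose in SSCTR against POF (medians -0.57 and 0.41). The motor Kif15, which works beside Kif11, gave -1.55 and 1.82 in these comparisons, and the minus-end motor Kifc1 gave -1.18 and 1.15.

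Of 17 condensin and cohesin genes, 6 fell in POF and 4 rose in SSCTR against POF, with medians of -0.13 and 0.13. Ncapd2 and Ncaph, condensin subunits, fell by 1.49 and 1.04 in POF, and Esco2, which acetylates cohesin, by 1.12. The 12 measured genes listed with the anaphase-promoting complex were subunits and also Fzr1, Ube2s and the separase gene Espl1. They showed no call in POF against WT by limma, with 2 lower at an unadjusted p under 0.05 and a median of -0.03. In SSCTR against POF 1 rose, Espl1, by 1.01, and no subunit passed.

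Among 13 measured G1 genes, 5 fell and 1 rose in POF, with a median of -0.27. The falls included the Cdk inhibitors Cdkn1b (p27, -1.27) and Cdkn1a (p21, -0.89) beside Ccne2 (-0.99) and Cdk2 (-0.89). In SSCTR against POF 1 rose, Rb1, by 0.91. Cdkn1b and Cdkn1a were also lower in SSCTR than in WT, with log2 differences of -1.29 (adjusted p = 0.00731) and -0.83 (adjusted p = 0.0322), and differed from POF by -0.01 and 0.06. Both inhibitors were thus lower than WT in POF and in SSCTR.

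**Figure D4:**
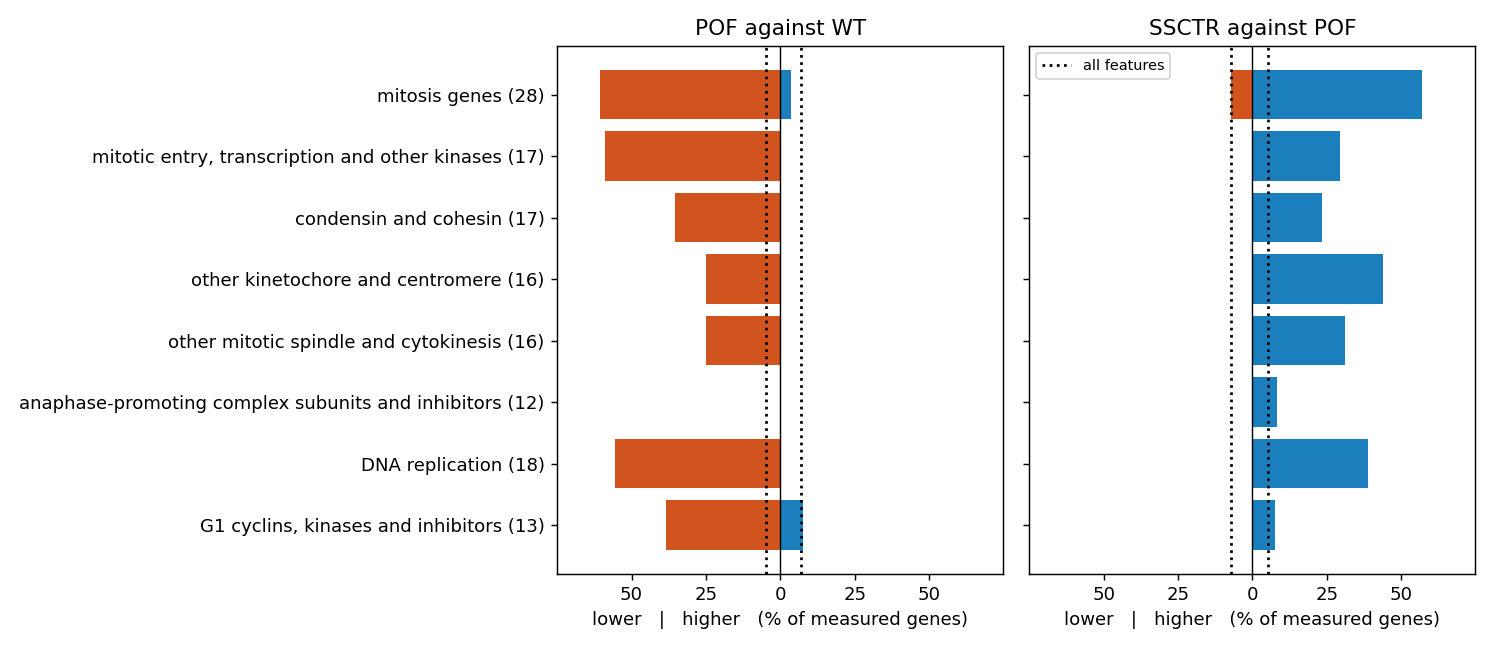
Share of measured genes past an adjusted p of 0.05, in percent and by direction, for the mitosis genes and the other cell cycle lists (number measured in brackets), in POF against WT and SSCTR against POF; bars left of 0 are lower and right of 0 higher, and dotted lines give all features. In POF against WT the mitosis genes stand at 60.7% lower, against 4.96% of all features.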

How the data were processed

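Illumina expression BeadChips measured total RNA of mouse ovaries. Per the file headers, the authors deposited for each of 9 columns an average signal, an intensity on a linear scale, and a detection p-value, which for replicate 1 exceeds 1 in places and was recorded as a score in the deposited table. A second deposited table holds normalized intensities. GenomeStudio is named in the submitters' processing notes; its version, the chip and the genome build are not given in the sources used here. The sorted intensities of the 6 arrays used differ by at most 0.542%, so they had already been brought to nearly 1 distribution. Gene symbols came from the platform annotation.

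The function neqc (limma 3.58.1, R 4.3.3) processed the intensities (normexp with the background estimated from detection p-values, offset 16, quantile normalization, log2). A probe entered with a detection p under 0.05 on at least 2 of 6 arrays. This kept 19394 probes, and 13872 features with the brightest probe per gene (11053 named genes, 2819 without a single symbol). Groups were fitted in 1 limma model with empirical Bayes moderation and Benjamini-Hochberg adjustment over all features; other probes of a gene were tested in a fit of all 19394 probes. The number of arrays, 2 per group, limits the precision. The fit was tested on simulated data. Same-numbered arrays did not deviate together (r = -0.0171, -0.0628 and -0.00259), so the main fit has no block. Alternatives changed background correction, offset, normalization, filter, probe rule, columns, variance prior and block, and left out each array.

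The members and lists were chosen with earlier results of these data known. Genes named with a value on every array are Cdk1, Aurkb, Plk1, Bub1b, Cdc20, Cenpa, Kif11, Prc1 and Top2a whatever they showed, the 6 past the threshold with the largest change in each comparison, those past it against the direction of most, and those whose probes differ in sign with at least 1 past it. Of other lists at most 4 genes past the threshold with the largest change are named, plus Foxm1 and the Spc25 partner Spc24, chosen after their values were seen.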

Additional observations from a re-analysis of the deposited data

How the results depend on the processing

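The number of members past the threshold ranged from 6 to 19 in POF against WT and from 6 to 17 in SSCTR against POF when each array was left out in turn. It was 0 in every such fit of SSCTR against WT. The lone array of a group is then assumed to vary like the other groups. Their medians ranged from -0.84 to -0.75, from 0.71 to 0.81 and from -0.09 to 0.01. For SSCTR against WT, 2 of 28 members passed without background correction (7.14%, against 6.18% of all features), 2 with the authors' normalized table (against 6.17%), and 7 with all 9 columns (25%, against 23.6%), which count the computed replicate 1 as an array. With the mean over probes, with every probe as a feature and with the replicate block, 0 passed, with 6 at an unadjusted p under 0.05 in each. The median in POF against WT was -0.49 without background correction, -0.64 with offset 50, -0.49 with the authors' table and -0.44 with no filter. In SSCTR against POF it was 0.49 without background correction, 0.63 with offset 50, 0.49 with the authors' table, 0.81 with detection p under 0.01 on all arrays, 0.49 with no filter, 0.71 with the mean over probes and 0.72 with all 9 columns. No named call changed sign. With the replicate block, 17 members passed in POF against WT and 16 in SSCTR against POF, and the 1 call in SSCTR against WT was lost. In the leave-one-out fits and all other alternatives that measured them, Aurkb, Plk1, Cdca3 and Cdca5 passed in POF against WT, and Kif11 and Ndc80 in SSCTR against POF. Dim probes limit what can be read of the 12 members with no probe that entered.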
